A study of Medicago truncatula with 24 samples.

Results

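The 26°C-only regions are places on the *M. truncatula* genome where the H3K27me3 peak lists of embryos grown at 26°C held peaks and those of embryos grown at 20°C held none. Overlapping or touching peaks of the 8 H3K27me3 lists on chromosomes 1 to 8 were joined into 21666 merged regions. A region was selected when it had a peak in 2 or more of the 4 lists at 26°C, with S1 or S2 among them, and no peak in the 4 lists at 20°C. The selection kept 982 regions, 4.53% of all merged regions. These peak calls chose the regions, so the presence and absence of H3K27me3 peaks in them is a description and was not tested.

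Embryos of line A17 were dissected from seeds, and the sources differ on how many went into a library at S3 and S4. All plants were grown at 20°C by day and 18°C by night until flowering, and part of them was then moved to 26°C by day and 24°C by night. The stages S1 to S4 were collected at 17, 26, 36 and 44 days after pollination (DAP) at 20°C and at 14, 17, 22 and 28 DAP at 26°C, so that stages were matched by development and not by age. S1 and S2 lie before and after the embryo acquires desiccation tolerance, and S3 and S4 lie around the time at which it acquires longevity. For each condition there was 1 IP library, called against its INPUT library, for H3K27me3 at 4 stages and for H3ac, histone H3 acetylated at several lysines, at S1 and S2. No condition had a replicate, so the temperature cannot be told apart from the library, and the 95% binomial intervals (Clopper-Pearson) given with the shares cover counting error only. The series record describes 2 replicates for H3ac where 1 library of each kind was analysed here, and whether an H3ac list stands for 1 or both is not stated. The lists give no read depth.

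H3K27me3 is trimethylation of histone H3 on lysine 27. It is written by Polycomb Repressive Complex 2, a conserved group of proteins that keeps developmental genes silent outside the tissue or stage in which they act. In plants the mark often covers the body of a gene, and in Arabidopsis the loss of this complex disturbs the passage from embryo to seedling. Histone acetylation is found mainly at active genes, and a lysine 27 that is trimethylated cannot be acetylated as well. The fold enrichment given below is the ratio of IP to INPUT that the authors' peak caller wrote for a peak, and in the broad peak lists of H3K27me3 it is an average over the peak.

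The number of regions that can meet the rule moves with the number of peaks called. On chromosomes 1 to 8 the lists of S1, S2, S3 and S4 held 4648, 1793, 1455 and 862 peaks at 20°C and 5611, 5234, 6448 and 4390 peaks at 26°C. The same rule with the temperatures exchanged found 96 regions, 0.443% of all merged regions. When each list was cut to its 862 strongest peaks by −log10 p, as many as the shortest list held, the order turned, with 58 regions at 26°C only and 152 at 20°C only. The larger number of 26°C-only regions therefore depends on the longer lists, and whether those reflect the embryos or the libraries cannot be told apart. Of the 982 regions, 45 overlapped one of those 58.

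The rule also left many regions close to its edge. In all, 1924 regions had a peak in 2 or more lists at 26°C with S1 or S2 among them, and 942 of them were left out because of a peak at 20°C. For 460 of these the 20°C peak was in a single list, 203 times S1, 129 times S2, 94 times S3 and 34 times S4. The regions just inside the rule had a best −log10 p of 2.83 (chr7:24642368-24643824), 3.08 (chr4:22793148-22795286) and 3.18 (chr3:18223900-18229048). Just outside was chr1:20754175-20762012, which had peaks at all 4 stages of 26°C and was left out for 1 S1 peak of 20°C whose −log10 p was 2.92 and a fold enrichment of 2.80. The regions chr8:1585061-1586123 and chr4:21153401-21156280 dropped out through S1 peaks of 20°C whose −log10 p was 2.97 and 2.99. The nearest 20°C peak was at a median distance of 17.7 kb, and 143 of the 982 regions (14.6%) had one within 3 kb.

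Most of the regions were seen at only part of the stages. From S1 to S4 the lists had a peak in 649, 657, 529 and 299 of them. The largest group, 245 regions, had peaks at S1 and S2 and none later, followed by 198 with S1 and S3 and 196 with S2 and S3. Peaks in 2 lists were found in 830 regions, in 3 lists in 134, and in all 4 in 18. In 737 regions (75.1%) a peak at S3 or S4 was included, and S1 was absent from 333 regions. The median length was 1099 bp for regions with 2 lists, 2090 bp with 3 and 5589 bp with 4. A longer merged region has more room for a peak of another list, and length was part of neither the rule nor a test.

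**Figure D1:**
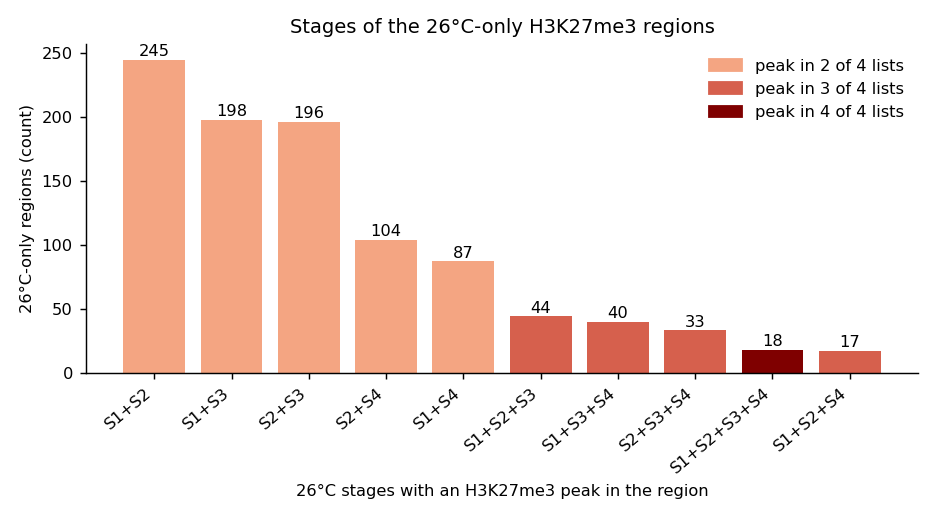
Number of 26°C-only regions (vertical axis) for each set of 26°C stages with an H3K27me3 peak (horizontal axis), coloured by the number of lists. Regions seen at 2 stages make up 830 of 982, and 18 were seen at all 4. The rule asks for S1 or S2, so the 331 regions of S3 and S4 alone are not drawn.

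The regions were neither the strongest nor the weakest of their lists. From S1 to S4 the median fold enrichment of peaks in the regions was 3.90, 3.86, 2.89 and 2.72. Outside the regions the medians of the same lists were 3.91, 3.90, 2.86 and 2.74. The peaks in the regions took 11.9%, 12.9%, 8.42% and 6.90% of the peaks of the lists from S1 to S4. They were longer than the other peaks of S1 (median 703 against 466 bp) and S2 (592 against 441 bp), and less so at S3 (491 against 438 bp) and S4 (542 against 507 bp). A longer peak more easily meets a peak of a second list, which the rule asks for, so these lengths are not independent of the selection. A fold enrichment of at least 5 in some list was reached by 301 regions and one of at least 10 by 19.

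**Figure D2:**
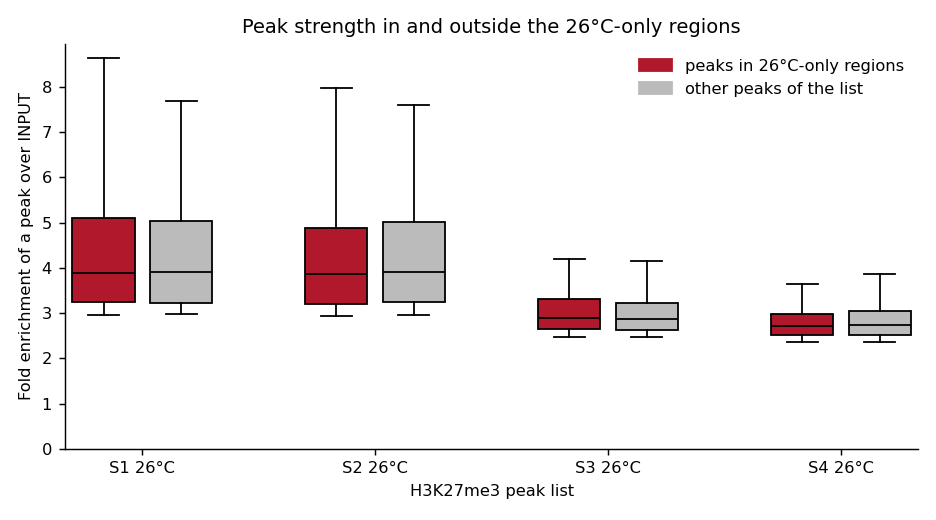
Fold enrichment over INPUT (vertical axis) of the H3K27me3 peaks of each 26°C list (horizontal axis), in red for peaks in the 26°C-only regions and in grey for the other peaks of the list. Boxes give the median and quartiles and whiskers the 5th to 95th percentiles, and the medians in and outside the regions lie within 0.1 of each other in each list, for instance 3.90 and 3.91 at S1.

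Where a region had peaks at an early and a late stage, the early peak was mostly the higher one. S1 exceeded S3 in 256 of 300 regions that had both (medians 3.88 and 2.90) and S1 exceeded S4 in 143 of 162. S2 exceeded S4 in 156 of 172 regions and S3 in 247 of 291. The whole lists of S3 and S4 had lower medians too, 2.86 and 2.74 against 3.91 and 3.90 for S1 and S2, so the difference was not one of the 26°C-only regions alone. Between S1 and S2 neither was higher as a rule (S1 in 156 of 324 regions). The peaks of a pair of lists did not rank the regions alike. Spearman's rho across regions was 0.04 to 0.26 over the 6 pairs of lists, with 91 to 324 regions for a pair, as a description of regions that share libraries.

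The length of a region was often set by 1 list. The median length was 1214 bp (quartiles 684 and 2332 bp), against 453 bp for all merged regions and 2130 bp for the 2439 regions with peaks at both temperatures. Together the regions covered 2.32 of the 27.2 Mb of all merged regions. The stretch under peaks of 2 or more lists had a median of 358 bp, 35.2% of the region, and it was under 200 bp in 162 regions. Of the 116 regions of 5 kb and over, 78 had peaks of a single list over 50% or more of their length, 38 had such peaks of 2 lists and 0 of more. The longest peak was from S2 in 58 and from S1 in 53 of these 116 regions, and from S3 or S4 in 2 and 3. The broad regions were therefore mostly domains called at S1 or S2 with a short peak of another stage inside.

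The region with the highest lowest fold enrichment among the 18 seen at all stages was a domain of both S1 and S2 with short later peaks. Of its 15136 bp, 14996 lay under peaks of 2 or more lists. It lies at chr1:1680330-1695465 in the MtrunA17r5.0 assembly, which is the build of all positions given here. Its fold enrichment from S1 to S4 was 4.49, 3.42, 3.36 and 4.73, the last being the highest of any S4 peak in the 26°C-only regions. The S1 and S2 peaks each ran over nearly its whole length, from 1680330 to 1695386 and from 1680391 to 1695465. The S3 peak (1685921 to 1686558) and the S4 peak (1685886 to 1686364) were short and lay over 1 small gene, LOC25481883 (1685805 to 1686696). The larger gene LOC112419293 (1690343 to 1695059) was under the S1 and S2 peaks only, and the nearest 20°C peak was 6509 bp away, from S3.

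The other 9 regions chosen by the same rule ranked below it by their lowest value, although 2 of them reached higher values at 1 stage. At chr1:4305526-4317088, which reaches over 1 end of LOC11422443, the fold enrichment was 4.17, 3.40, 3.45 and 3.09 from S1 to S4. At chr4:9305164-9308741, with no gene, it was 3.84, 2.87, 3.18 and 3.45, and a 20°C peak of S2 lay 1588 bp away. At chr3:4467545-4481152, also without a gene and 90.7 kb from any 20°C peak, it was 3.14, 2.77, 3.07 and 2.99. That is the narrowest range of the 10.

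A pair of regions on chromosome 8, chr8:22022712-22026580 over LOC112417366 and chr8:22659342-22664946 without a gene, had fold enrichments of 4.97, 3.82, 3.28 and 2.71 and of 4.27, 3.15, 3.87 and 2.75. Both were highest at S1 and lowest at S4. At chr2:29205784-29207933, where no gene is annotated, S2 stood out with 5.67 against 3.00 at S1, 2.74 at S3 and 3.08 at S4. The remaining regions of the 10 were chr5:35078054-35079333 (3.42, 3.25, 2.68 and 2.72), chr7:15065433-15071005 (4.17, 3.37, 3.03 and 2.59) and chr4:12640815-12649190, which is described with its neighbours below. Of the 10, S1 had the highest value in 7.

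**Figure D3:**
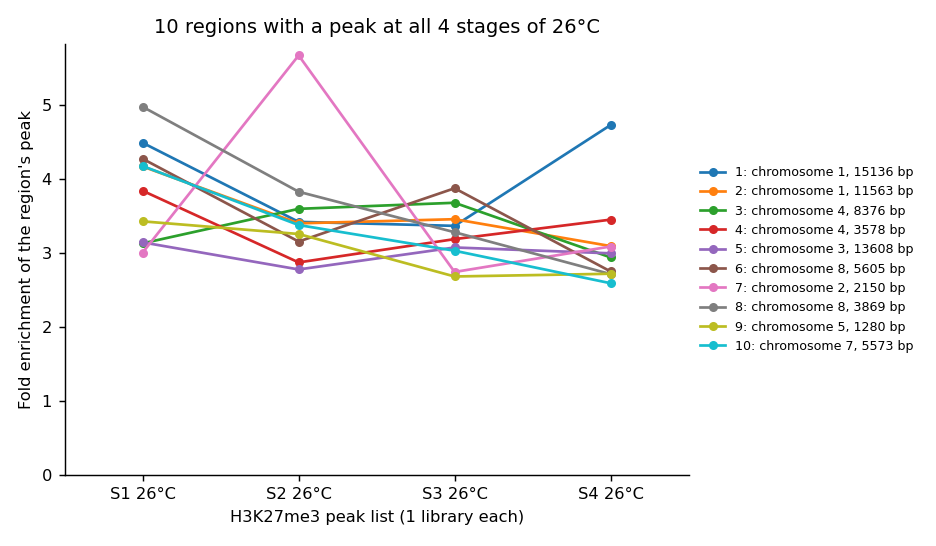
Fold enrichment over INPUT (vertical axis) at each 26°C stage (horizontal axis, 1 library each) of the 10 regions with peaks at all 4 stages and the highest lowest value, numbered in that order. Apart from one, the values lie between 2.59 and 4.97, and the peak of S2 at the region on chromosome 2 reaches 5.67.

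The highest fold enrichments were in short regions outside genes, which were picked after their values were seen. The 540 bp region chr4:19434942-19435481 had 14.3, 21.8, 7.12 and 2.57 from S1 to S4, with 503 bp under peaks of 2 or more lists and the nearest 20°C peak 55.0 kb away. Its values at S1 to S3 are far above the list medians, while that of S4 is below. The region chr3:40608704-40609205 had 19.9 at S1 and 3.26 at S4, and chr3:5683927-5684553 had 6.62 at S1 and 17.4 at S2. No protein-coding gene of the table overlaps any of the 3.

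The longest region, chr3:14296152-14319337 (23186 bp), had peaks at all 4 stages with fold enrichments of 4.89, 7.97, 2.46 and 2.51. It holds no protein-coding gene, and 12000 bp of it lay under 2 or more lists. The next 4 by length do overlap genes. In chr5:20615707-20637749 (LOC11436426) the S1 and S2 peaks, with 3.93 and 3.92, shared only 358 bp of 22043. In chr5:5218342-5239217 (LOC11434946, LOC11434947 and LOC11420565) they had 4.65 and 5.22 and shared 603 bp. In chr6:27853366-27873349 (LOC120580909) the S1 and S4 peaks, with 4.02 and 2.95, shared 398 bp. In chr3:56521182-56538923, which holds LOC11428882, LOC11436127 and LOC120579641, peaks of S1 to S3 had 3.71, 3.54 and 2.94. There 5126 bp lay under peaks of 2 or more lists. In 3 of these 4 regions the lists thus met in under 700 bp.

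Genes were assigned by overlap with the RefSeq gene table of the same assembly, which gives no strand, no exons and no product names. A protein-coding gene was overlapped by 338 of the 982 regions, 34.4% (31.4% to 37.5%), against 32.3% of all merged regions, 24.4% of the regions with peaks at both temperatures and 17.7% (10.7% to 26.8%) of the 96 regions of the exchanged rule. The share is near the background, except that with equal numbers of peaks in each list it was 48.3% (35.0% to 61.8%) against 28.4%. They touched 382 of 31728 protein-coding genes in 384 pairs of a region and a gene. In 177 pairs the region lay within the gene, in 140 it lay over 1 end and in 67 the gene lay wholly under the region. Regions outside protein-coding genes were at a median of 7.28 kb from the nearest one. Other kinds of gene were overlapped less often, lncRNA genes by 15 regions (1.53%), snoRNA genes by 10 (1.02%), pseudogenes by 22 (2.24%) and tRNA genes by 3 (0.305%). Over all merged regions these shares were 1.43%, 0.738%, 1.84% and 0.143%.

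A region free of 20°C peaks is not a gene free of them. Of the 382 genes, 28 (7.33%) had a 20°C H3K27me3 peak elsewhere in the gene, namely 17 in the S1 list, 11 in that of S2, 8 in that of S3 and 3 in that of S4. The long gene LOC25495344 (chr6:4873931-4909910) and LOC11422532 (chr6:4876010-4906107), which overlaps it, carried 2 of the regions each. These were chr6:4875533-4878034, with 3.14 at S1 and 3.01 at S2, and chr6:4891422-4892449, with 5.52 at S2 and 2.69 at S4. Because the genes share these regions and strand is not in the table, they cannot be told apart here.

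Only 3 of the 382 genes have a published name in the table, of 75 such genes on chromosomes 1 to 8, of which 12 were touched by any merged region. They were looked at because they are named, after the values were seen. All act in *M. truncatula* in the nodule, the root organ in which legumes house nitrogen-fixing bacteria. NOOT1 and NOOT2 are co-activators of the BLADE-ON-PETIOLE family, which in Arabidopsis shapes leaves and flowers and in nodules maintains organ identity, and ENOD20 is an early nodulin.

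NOOT2 (LOC25483282, chr1:20472919-20476546) carried the region chr1:20473587-20474006, with a fold enrichment of 3.46 at S1 and 9.02 at S2 of 26°C. A further S1 peak of 26°C, at 20475642 to 20476505 with 8.28, lay in the same gene 1635 bp away. No 20°C H3K27me3 peak of any stage touched the gene. An H3ac peak of S1 at 20°C, with a fold enrichment of 3.14 and a −log10 q of 1.06, lay in the gene and ended 36 bp before the region (20473178 to 20473550). At this gene the H3K27me3 peaks were from 26°C alone and the H3ac peak was from 20°C alone. The latter was the usual case. Of the 1734 protein-coding genes with an H3ac peak in any list, 1647 had one of S1 at 20°C. Only 66 had one of S1 at 26°C and 40 one of S2 at 26°C.

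NOOT1 (LOC11417633, chr7:42203811-42207270) carried the region chr7:42205964-42206689, with 6.82 at S2 and 2.96 at S4. Here the gene did have H3K27me3 at 20°C, since an S1 peak of 20°C with 4.91 covered its other end (42203776 to 42204141), 1822 bp from the region. No H3ac peak touched the gene. ENOD20 (LOC11444178, chr4:62679049-62681830) carried the region chr4:62680976-62681583, with 9.30 at S1 and 7.57 at S2, no peak at S3 or S4, and no 20°C or H3ac peak in the gene. The ENOD20 region is one of the 45 that overlapped a 26°C-only region when all lists were cut to the same number of peaks, and those of NOOT1 and NOOT2 are not.

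Those 45 regions were mostly short, with a median length of 754 bp. A peak at S1 was present in 42 of them and peaks at both S1 and S2 in 25, and 23 overlapped a protein-coding gene. Of the 10 regions with the highest lowest value, chr2:29205784-29207933 alone is among them. Another, chr6:14986523-14988126, which covers the whole of LOC25496259 and extends beyond it, had fold enrichments of 8.63, 9.99, 3.82 and 2.58 from S1 to S4, with a 20°C peak of S1 1818 bp away. The strongest region, chr4:19434942-19435481, was kept as well.

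H3ac was not part of the rule and is the independent readout. An H3ac peak of any list overlapped 87 of the 982 regions, 8.86% (7.16% to 10.8%), against 7.79% of all merged regions and 29.3% (27.5% to 31.1%) of the regions with H3K27me3 peaks at both temperatures. The intervals of the 26°C-only regions and of the regions with both do not overlap, while the background value lies inside that of the 26°C-only regions. By list, S1 at 20°C overlapped 67 regions (6.82%, 5.33% to 8.58%, background 5.05%) and S2 at 20°C overlapped 13 (1.32%, 0.707% to 2.25%, background 2.64%). S1 at 26°C overlapped 8 (0.815%, 0.352% to 1.60%, background 1.98%) and S2 at 26°C overlapped 5 (0.509%, 0.166% to 1.18%, background 1.34%). Only the list of S1 at 20°C was above its background, which its interval leaves out, and the other 3 were below theirs. These backgrounds were not matched for length, and the 26°C-only regions were longer (median 1214 against 453 bp). The list of S1 at 20°C was the longest, with 4376 H3ac peaks on chromosomes 1 to 8 against 928, 786 and 530. Without it 2.44% of the regions (1.57% to 3.61%) had an H3ac peak, against 3.96% of all merged regions. How the share stands to the background depends on the peaks used. It was above it with a fold enrichment of at least 3 (11.3%, 9.07% to 13.9%, background 5.21%). The same held for regions seen in 3 or more lists (17.8%, 12.0% to 24.8%, background 7.79%). Those were longer, with medians of 2090 bp for 3 lists and 5589 bp for 4, and 23.8% of other merged regions of 2 to 5 kb had an H3ac peak. With equal numbers of peaks the share was below the background (6.90%, 1.91% to 16.7%, background 15.1%), and the interval includes the background.

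The regions with an H3ac peak had it at 20°C only in 74 cases, at 26°C only in 10 and at both in 3. The share at 20°C only was 85.1% (75.8% to 91.8%), against 67.1% for all merged regions with an H3ac peak and 55.3% for those with H3K27me3 at both temperatures, so that H3ac at 20°C alone prevailed in all of them. With the same stage considered, H3K27me3 and H3ac peaks of 26°C met in 6 regions at S1 and 5 at S2. Of the genes touched by 26°C-only regions, 43 of 382 (11.3%) had an H3ac peak anywhere in the gene, 34 of them in the list of S1 at 20°C. The share was 8.98% for the 6281 genes touched by any merged region, whose median length was 4222 bp against 3668 bp for the 382, and 5.47% for all protein-coding genes.

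Among the 10 regions with an H3ac peak that come first by number of lists, 8 were seen at all 4 stages. Apart from those above they include chr2:31511212-31512954 (3.44, 3.51, 2.49 and 2.66) and chr6:21095150-21104180 over LOC120580927, LOC120576024 and LOC11446652 (2.75, 3.54, 3.36 and 2.32), each with an H3ac peak of S1 at 20°C. The regions chr8:22659342-22664946 and chr3:14296152-14319337 had one of the same list, chr7:15065433-15071005 one of S2 at 20°C and chr2:29205784-29207933 one of S1 at 26°C. The other 2, chr1:31866427-31869917 and chr1:215864-228023 over LOC11425644, were seen at S1 to S3, with 3.30, 3.94 and 3.67 and with 4.02, 3.93 and 3.23. In the latter the H3ac peak of S1 at 26°C overlapped the region's H3K27me3 peaks by 17 bp only. The region chr8:22022712-22026580 had H3ac peaks of S2 at 20°C and of S1 at 26°C. The region that held the strongest H3ac peak was chr3:56651920-56660536, with a fold enrichment of 8.18 at S1 of 20°C, chosen after its value was seen.

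Set beside all other merged regions of like length, the 26°C-only regions had H3ac peaks less often in each class of 1 kb and over. Against the others without peaks at both temperatures this did not hold in every class. Most of the long comparison regions had H3K27me3 peaks at both temperatures. These were 400 of 460 at 10 to 25 kb and 317 of 491 at 5 to 10 kb. They included 182 of the 191 and 127 of the 143 that had an H3ac peak. From 2 to 5 kb regions with both were 517 of 985, with 170 of the 234 that had an H3ac peak. From 1 to 2 kb they were 536 of 2303, with 113 of 304. Without regions with both, the H3ac share of the others falls below that of the 26°C-only regions at 2 to 5 and 5 to 10 kb. It stays above at 1 to 2 kb, and at 10 to 25 kb it is above but inside the interval of the 26°C-only regions. The differences from 2 kb up are thus mainly from regions with peaks at both temperatures. Of the 46 regions of 10 to 25 kb, 4 had an H3ac peak, 8.70% (2.42% to 20.8%), against 41.5% (37.0% to 46.2%) of the other merged regions of that length. From 5 to 10 kb the shares were 14.3% (7.07% to 24.7%) and 29.1% (25.1% to 33.4%). From 2 to 5 kb they were 17.3% (11.9% to 23.8%) and 23.8% (21.1% to 26.5%), and from 1 to 2 kb 6.40% (3.90% to 9.81%) and 13.2% (11.8% to 14.7%). Below that the shares were close, with 7.56% (4.80% to 11.2%) and 6.77% (6.03% to 7.58%) from 0.5 to 1 kb. The intervals do not meet at 1 to 2 kb, 5 to 10 kb and 10 to 25 kb. Genes were more frequent in the long classes than among all other merged regions of those lengths. A protein-coding gene was overlapped by 35 of the 46 longest regions, 76.1% (61.2% to 87.4%), against 44.8% (40.2% to 49.5%) of the others of that length. Of the 460 others 206 had a gene, and 161 of these were among the 400 with peaks at both temperatures. From 5 to 10 kb 36 of 70 regions had a gene, 51.4%, against 184 of 491 others, of which 95 were among the 317 with both. Without regions with both, the others had a gene about as often as the 26°C-only regions in these 2 classes. The lower share of the others is thus mainly that of regions with both. Under 0.5 kb the shares with a gene were 32.7% and 33.4%. The regions over 2 or more protein-coding genes numbered 33, among them chr4:52394724-52404258 over LOC25493794 and LOC25493795 (4.29, 4.97 and 3.25 from S1 to S3) and chr4:56593448-56599195 over LOC25493983 and LOC25493984 (3.73, 4.06 and 3.10 at S1, S2 and S4). As most of the long regions were domains of a single list, these shares describe S1 and S2 domains, and a role of the peak caller's joining of broad peaks was not tested.

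**Figure D4:**
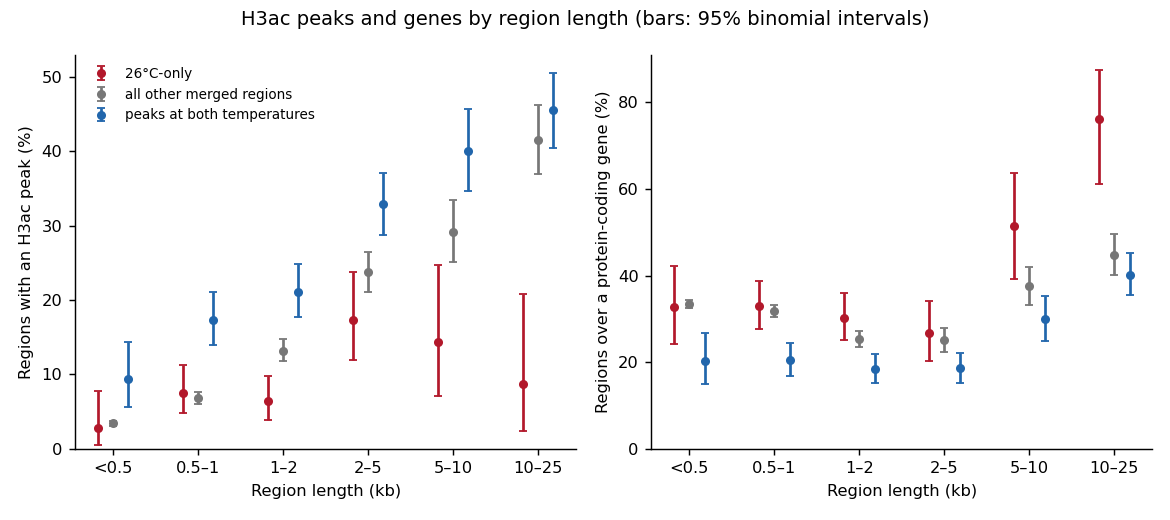
Percent of regions with an H3ac peak of any list (left) and over a protein-coding gene (right) by region length in kb, for 26°C-only regions (red), all other merged regions (grey) and regions with H3K27me3 peaks at both temperatures (blue). Points are shares and bars 95% binomial intervals. Among the longest regions the red points are at 8.70% for H3ac and 76.1% for genes, and the grey points at 41.5% and 44.8%. Of the 460 grey regions of that length, 400 are also in the blue class. These hold 182 of the 191 grey regions with an H3ac peak and 161 of the 206 over a gene.

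The regions were spread over all chromosomes, from 1.77 per Mb on chromosome 8 to 3.01 per Mb on chromosome 6, where they were 3.69% and 5.43% of the merged regions. Gene-poor stretches, taken as 1-Mb bins that hold under 40 protein-coding genes, contained 19.5% (17.0% to 22.1%) of them, close to the 19.0% of all merged regions and below the 32.7% of the regions with peaks at both temperatures. Neighbouring regions were a median of 277 kb apart.

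The run with the most regions, with gaps of at most 50 kb, was chr4:12549282-12685175, where 7 of the regions lay in 136 kb. H3K27me3 peaks in this stretch numbered 2, 3, 5 and 2 in the 20°C lists of S1 to S4 and 3, 14, 14 and 8 in the 26°C lists, so the 7 regions rest mainly on S2 and S3. Of its 14 merged regions 4 had a 20°C peak. The region seen at all 4 stages, chr4:12640815-12649190, had fold enrichments of 3.13, 3.59, 3.68 and 2.94 and overlapped LOC120580075 and 2 H3ac peaks of S2 at 26°C, with 6.63 and 7.14. Of H3ac, the run held 15 peaks of S2 at 26°C and 0 of S1, and 2 of either stage at 20°C.

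This stretch differs from the rest of the genome in its genes. It holds 29 protein-coding genes and 21 of the 746 tRNA genes on chromosomes 1 to 8. Read from left to right, the anticodons of all 21 follow the order of the 29 tRNA genes listed for the plastid genome read backwards around its circle, and read forwards 5 do. Nuclear genomes of plants carry copies of plastid DNA, and cells hold many copies of the plastid itself. Peaks were called on the plastid and mitochondrial sequences too, 52, 49, 17 and 15 in the 20°C lists of H3K27me3 and 37, 28, 25 and 33 in the 26°C lists. The H3ac lists had 20 (S1) and 1 (S2) such peaks at 20°C and 0 (S1) and 7 (S2) at 26°C. A part of organelle DNA in the peaks of this run was not tested. In all, 11 of the 982 regions (1.12%) and 0.198% of all merged regions had 5 or more tRNA genes within 50 kb. Copies of organelle DNA with fewer tRNA genes nearby would be missed by this count, so it does not clear the other 971.

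The run with the next most regions, chr7:13428136-13496547, held 5 regions in 68.4 kb and no protein-coding gene. All of its regions had a peak at S1 except chr7:13443504-13445445, and the longest was chr7:13428136-13440296 with peaks at S1 to S3. Of the merged regions in it, 2 had a 20°C peak.

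**Figure D5:**
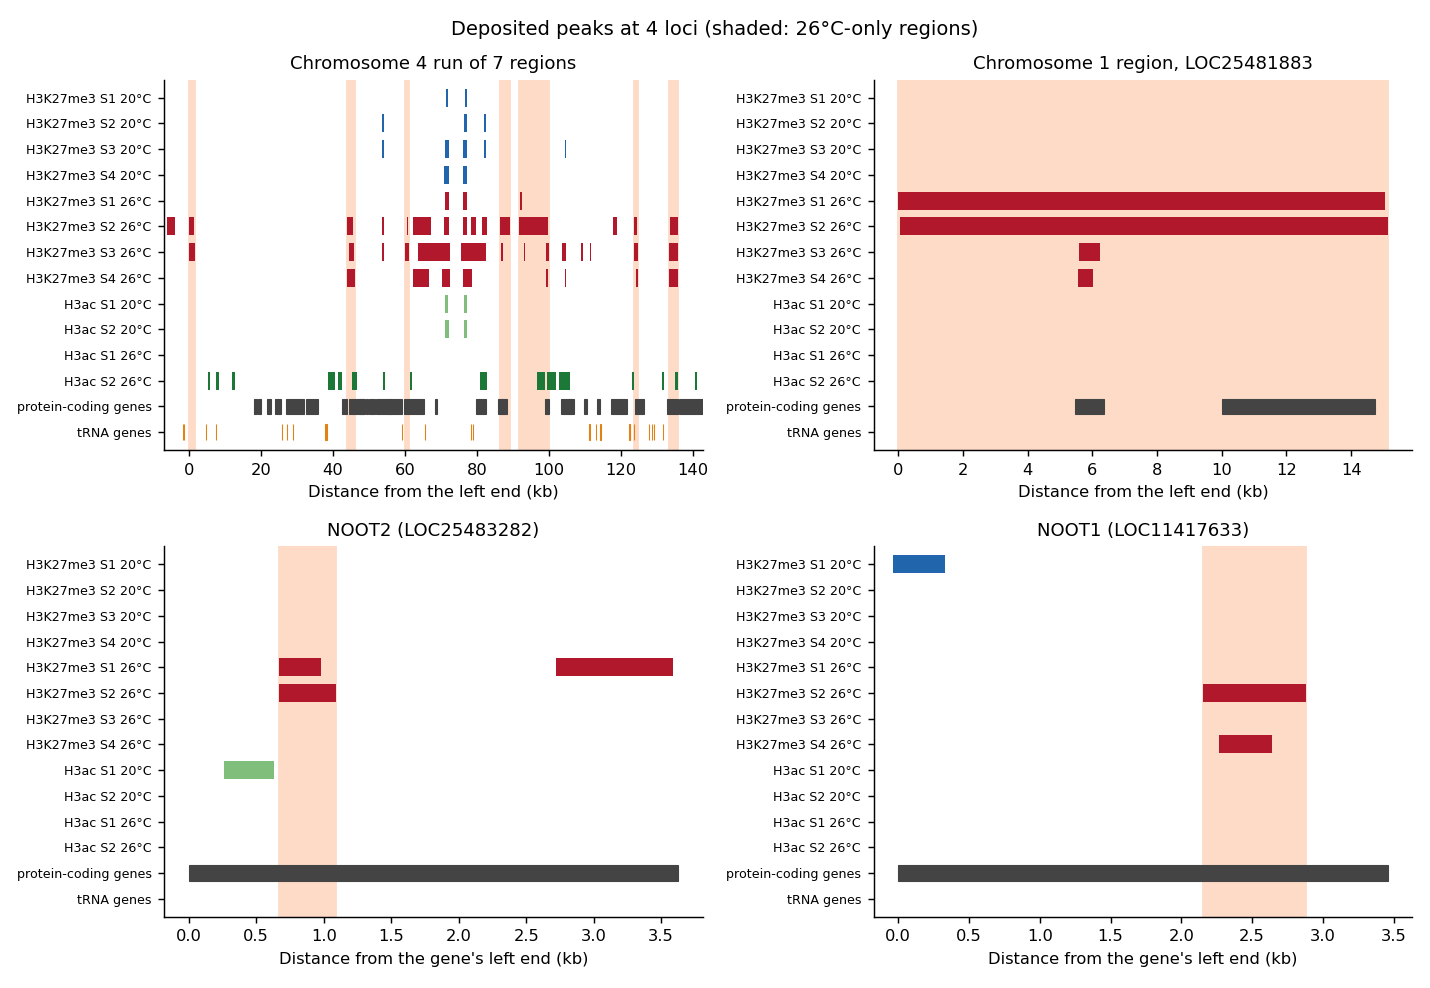
Deposited peaks at 4 loci, with distance in kb from the left end of the run, region or gene on the horizontal axis and 1 row for each H3K27me3 list (blue 20°C, red 26°C), each H3ac list (green) and the genes (grey protein-coding, orange tRNA). Shading marks the 26°C-only regions. The chromosome 4 run shows 14 peaks each at S2 and S3 of 26°C among its 21 tRNA genes, the chromosome 1 region has short S3 and S4 peaks over LOC25481883, NOOT2 has no 20°C H3K27me3 peak, and NOOT1 has 1.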

How the data were processed

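Per the labels and methods, reads were trimmed (Trim Galore), checked (FastQC), mapped to MtrunA17r5.0 (STAR) and marked for duplicates (Picard); MACS2 then compared each IP with its own INPUT library, unpooled, at a p-value threshold of 0.01. Versions are not given in the sources used here. The authors deposited, for each peak, its position, a ratio of IP to INPUT (fold enrichment), a −log10 p-value and a −log10 q-value.

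Peaks on chromosomes 1 to 8 were merged and compared with Python 3.11.15, NumPy 2.4.6, SciPy 1.17.1 and pandas 2.3.3, and plots were drawn with matplotlib 3.10.9. An overlap was at least 1 bp. The merging and overlap code passed 8 of 8 checks, some on simulated intervals with known answers and others on the real peaks against bedtools 2.31.1. With 1 library for each condition no test between conditions was made.

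The regions and lists were chosen with earlier results of these data known. Regions named were the 10 seen in most 26°C lists by their lowest fold enrichment, the 5 longest, the first 10 with H3ac, the first 5 over 2 or more protein-coding genes and those at the rule's edge; other named regions were chosen after their values were seen. Planned gene lists and motifs were not used here, since the gene table has no product names and no sequence was used. Alternatives were stricter peak thresholds, equal numbers of peaks, other merging, gaps, numbers of lists, overlaps and flanks, and each stage left out. Unplaced contigs and organelles were left out of the merged regions.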

Additional observations from a re-analysis of the deposited data

Results flagged for a closer look

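Of 19 sets of 4 lists, 2 had a list farther from the others than Dixon's 95% critical value for 4 values allows. Chance gives this in about 1 in 20 sets of values drawn alike. The lists of a set differ in stage or temperature, so that rate need not hold here and the value serves as a flag only. The H3ac list of S1 at 20°C overlapped 67 of the 26°C-only regions against 13, 8 and 5 for the other lists. These are raw counts, and that list held 4376 H3ac peaks against 928, 786 and 530. In the region chr2:29205784-29207933 the fold enrichment at S2 of 26°C was 5.666 against 2.74 to 3.084 at the other stages.

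Outside chromosomes 1 to 8, which the report does not use, the rule was met by 9 of 221 merged regions on unplaced contigs and by 7 of 27 on the plastid and mitochondrial sequences. The rule with the temperatures exchanged was met by 0 of either.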

How the results depend on the processing

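The 982 regions at 26°C only and 96 at 20°C only became 310 and 21 with a −log10 p of at least 5, 152 and 7 with peaks in 3 or more lists, 497 and 56 without S1, 480 and 38 without S2, and 58 and 152 with equal numbers of peaks, where the order turned. Without S3 the 26°C number was 650. With a fold enrichment of at least 3 the 20°C number was 13, and with no peak of the other temperature within 3 kb it was 55. The other alternatives stayed within 1.5 times of both numbers. Like numbers need not be the same regions. The 688 regions at 26°C only with a fold enrichment of at least 3 overlapped 489 of the 982 (49.8%). The 310 with a −log10 p of at least 5 overlapped 210 (21.4%).

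The share with an H3ac peak, 8.86% against 7.79% of all merged regions, was 6.13% (against 4.51%) at a −log10 p of at least 5, 6.28% (5.01%) at a q-value of at most 0.05, 11.3% (5.21%) at a fold enrichment of at least 3, 6.90% (15.1%) with equal numbers of peaks, 17.8% (7.79%) with 3 or more lists, 3.22% (4.45%) without S1 and 2.44% (3.96%) without the H3ac list of S1 at 20°C. It was thus below the background in the last 2 and with equal numbers. None of these backgrounds was matched for region length. The share over a protein-coding gene, 34.4% against 32.3%, was 48.3% (28.4%) with equal numbers of peaks, 30.3% (32.3%) with 3 or more lists, 30.8% (27.9%) without S1, 27.1% (31.3%) without S2 and 52.7% (53.5%) with 3 kb on each side of the gene.

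At least 200 bp under peaks of 2 or more lists, chosen after seeing the data, left 820 regions; leaving out that H3ac list was chosen likewise. The cause of these shifts was not tested beyond the peaks each setting removes. No paired analysis was possible because the results come from no test and the labels number every library as replicate 1; the stages that both temperatures share are not replicates. Read depth is not in the lists, the study's read numbers were not used here, and what depth limits was not tested.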
